A study of Mus musculus with 12 samples.

Results

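Defensin genes encode small cationic antimicrobial peptides, and 83 genes with symbols that start with Defa (40 genes) or Defb (43 genes) were found among 49640 genes of the RefSeq table of GRCm38.p6, the assembly behind mm10. With earlier results of these data known, the family was proposed, and its members were then taken by symbol alone. On chromosome 8, which held 64 of them, they were described together with the 95 FLAG-Zscan4 regions whose midpoints lay at 19 to 22 Mb, of 4973 regions in the whole list. That stretch was chosen because earlier work on the same list had found regions dense there, so its density, scores and widths are given as a description with no test. The word amplified was attached to the stretch beforehand, but copy number was not measured, and the stretch is named here by its position.

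The study overexpressed Zscan4c, a zinc finger protein of the early mouse embryo, in J1 cells, a mouse embryonic stem (ES) cell line whose strain is labelled 12910la. The group analysed was the FLAG immunoprecipitation from Zscan4-overexpressing cells, made with 1000 ng of a pCMV-FLAG plasmid that carried the Zscan4c coding sequence, followed 24 h later by 500 ug/ml of G418 for 10 days and picking of single clones. The other 11 of the 12 samples, each a group of 1, were the matching overexpression input and the H3K27ac, H3K14ac and H3K4me1 immunoprecipitations and inputs from overexpressing and wild-type cells, and they were not analysed here. The CMV promoter of the plasmid is a strong viral promoter, the number of clones behind the library is not stated, and the list holds no expression values with which the cell type could be checked. There was no replicate and no list from wild-type cells, so no difference between conditions was tested and every interval covers counting error only. Depth was unknown.

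Alpha-defensins, called cryptdins in the mouse, are stored in the granules of Paneth cells at the base of small intestinal crypts and are cut to their active form by the metalloproteinase Mmp7. Beta-defensins are made by many epithelia, and a large number of them are expressed mainly in the epididymis, where some coat the surface of sperm. Both families arose by repeated local duplication, which leaves clusters of similar genes and pseudogenes. Zscan4 is known to bind microsatellite DNA of the CA/TG type and to act at telomeres. The sequences below show the promoters (250 bases before to 50 bases after an annotated start) that a FLAG-Zscan4 region overlapped, since these are the regions of the stretch whose DNA could be read, at least in part, from the RefSeq promoter table of GRCm38.p6. Capitals mark the bases inside the region.

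Defb11, chr8:21906383-21906682, minus strand: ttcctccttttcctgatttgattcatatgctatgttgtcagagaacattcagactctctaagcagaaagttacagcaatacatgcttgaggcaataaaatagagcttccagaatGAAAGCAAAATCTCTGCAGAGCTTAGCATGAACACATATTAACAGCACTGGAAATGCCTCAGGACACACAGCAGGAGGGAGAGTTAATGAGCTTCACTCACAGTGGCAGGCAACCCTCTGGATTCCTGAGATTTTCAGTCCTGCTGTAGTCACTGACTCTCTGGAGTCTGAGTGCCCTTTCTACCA
Gm15319, chr8:20363153-20363452, minus strand: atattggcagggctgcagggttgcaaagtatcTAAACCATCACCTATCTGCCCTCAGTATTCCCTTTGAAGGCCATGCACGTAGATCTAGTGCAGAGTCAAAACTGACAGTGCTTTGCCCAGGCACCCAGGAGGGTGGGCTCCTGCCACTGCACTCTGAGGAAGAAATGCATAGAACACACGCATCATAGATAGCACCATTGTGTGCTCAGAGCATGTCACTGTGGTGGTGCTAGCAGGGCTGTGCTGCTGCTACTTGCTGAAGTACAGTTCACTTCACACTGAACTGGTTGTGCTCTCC
Gm21119, chr8:20614677-20614976, plus strand: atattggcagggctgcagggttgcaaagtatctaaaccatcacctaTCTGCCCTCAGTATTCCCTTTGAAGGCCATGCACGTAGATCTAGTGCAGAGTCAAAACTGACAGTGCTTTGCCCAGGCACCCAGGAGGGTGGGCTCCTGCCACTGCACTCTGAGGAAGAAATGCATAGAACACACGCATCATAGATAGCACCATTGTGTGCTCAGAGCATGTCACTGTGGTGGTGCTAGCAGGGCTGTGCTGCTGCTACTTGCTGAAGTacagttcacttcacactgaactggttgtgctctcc
Gm46074, chr8:20649078-20649377, plus strand: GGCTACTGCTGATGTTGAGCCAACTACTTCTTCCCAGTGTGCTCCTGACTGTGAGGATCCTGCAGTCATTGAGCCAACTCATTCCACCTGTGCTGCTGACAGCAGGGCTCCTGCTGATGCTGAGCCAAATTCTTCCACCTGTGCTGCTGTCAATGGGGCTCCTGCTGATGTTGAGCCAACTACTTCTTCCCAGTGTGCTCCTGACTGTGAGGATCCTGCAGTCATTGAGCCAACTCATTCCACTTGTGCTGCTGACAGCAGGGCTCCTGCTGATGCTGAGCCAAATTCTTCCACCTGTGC
Gm40468, chr8:20261150-20261449, minus strand: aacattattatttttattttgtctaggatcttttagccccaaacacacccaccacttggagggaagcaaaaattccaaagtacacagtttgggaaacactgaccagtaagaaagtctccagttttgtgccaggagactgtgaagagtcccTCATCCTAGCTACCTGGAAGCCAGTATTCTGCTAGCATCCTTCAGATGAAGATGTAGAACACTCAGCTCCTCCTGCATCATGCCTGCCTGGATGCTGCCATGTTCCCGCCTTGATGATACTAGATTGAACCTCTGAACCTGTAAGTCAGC

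The regions of the chromosome 8 stretch lay mostly between the defensin genes and not among them. The 64 chromosome 8 members formed 2 clusters, when genes under 500 kb apart were joined. The proximal cluster (chr8:18974914-19497775) held 14 Defb genes and 4 pseudogenes with Defa symbols, and the distal cluster (chr8:20892667-21948622) held 36 genes with Defa and 10 with Defb symbols. The interval between them spanned 1.40 Mb, contained no defensin gene and carried 85 of the 95 regions (89.5%). The proximal cluster contained 2 regions, the distal cluster 7, and the last of the 95 lay beyond the distal cluster, 0.334 kb from Atp7b, a copper transporter gene. Of the 95 regions, 5 (5.26%) lay within 10 kb of a defensin gene and 82 (86.3%) lay over 100 kb from one, with a median distance of 346 kb and a maximum of 657 kb.

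**Figure D1:**
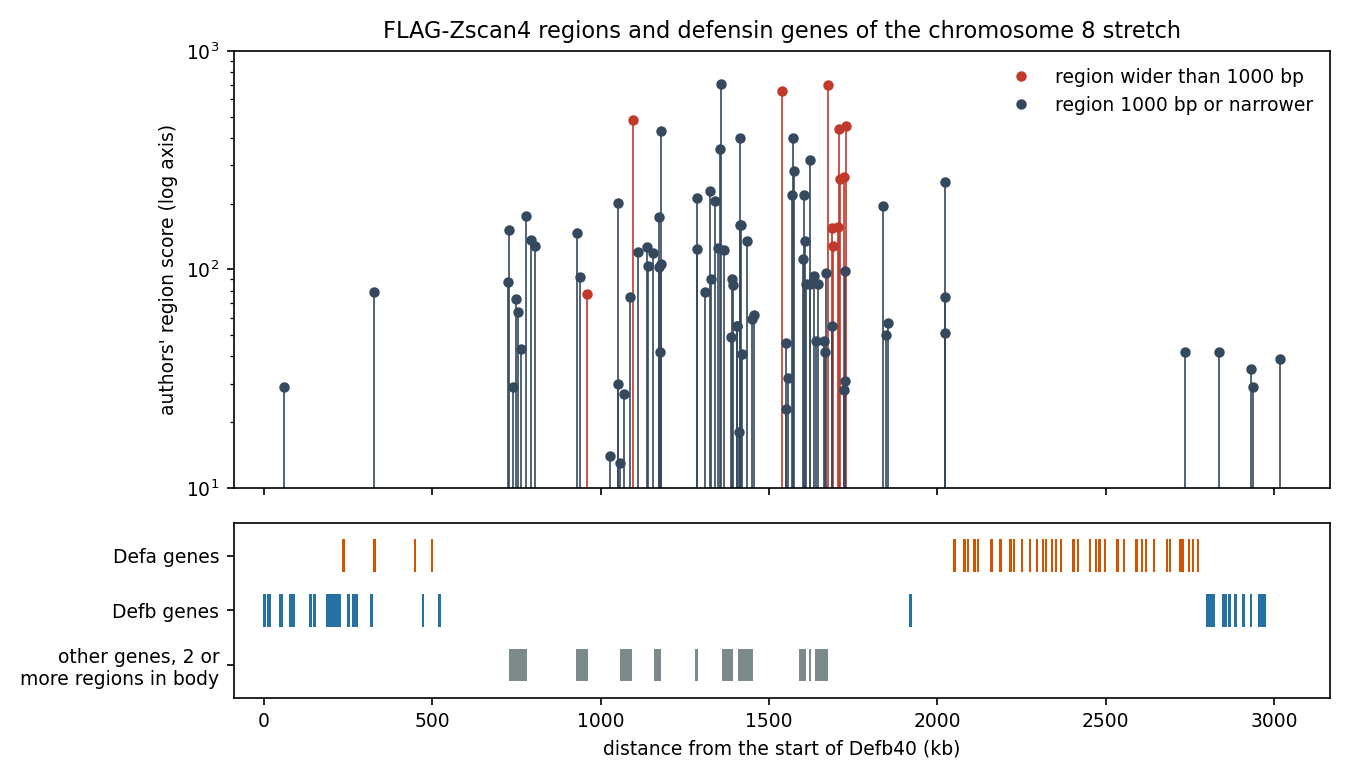
FLAG-Zscan4 regions at 19 to 22 Mb of chromosome 8, each drawn at its midpoint as the distance from the start of Defb40 (kb) against the authors' score (log axis), above the positions of Defa genes, Defb genes and other genes with 2 or more regions in the body. The 85 regions between the clusters, among them all 11 wider than 1000 bp (red), fill the interval without defensin genes, and 33 Defa genes sit in a gap of 713 kb with no region.

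The density of regions differed by segment. Between the clusters it was 60.9 per Mb (95% exact Poisson interval 48.7 to 75.4). Inside both chromosome 8 clusters together it was 5.70 per Mb (2.61 to 10.8, 9 regions over 1.58 Mb), and inside the clusters of chromosomes 1, 2 and 14 together it was 3.45 per Mb (0.0873 to 19.2, 1 region over 0.290 Mb). Chromosome 8 outside 19 to 22 Mb carried 366 regions, or 2.97 per Mb (2.67 to 3.29), a value inside the intervals of both sets of clusters. Neighbouring regions are not independent, so these intervals are too narrow. The whole stretch, at 31.7 per Mb, had 10.7 times the rate of the rest of the chromosome. It held 20.6% of the regions of chromosome 8 in 2.38% of its length. Without it, chromosome 8 still stood above the other 17 autosomes apart from chromosome 1, which ranged from 1.54 to 2.09 per Mb.

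**Figure D2:**
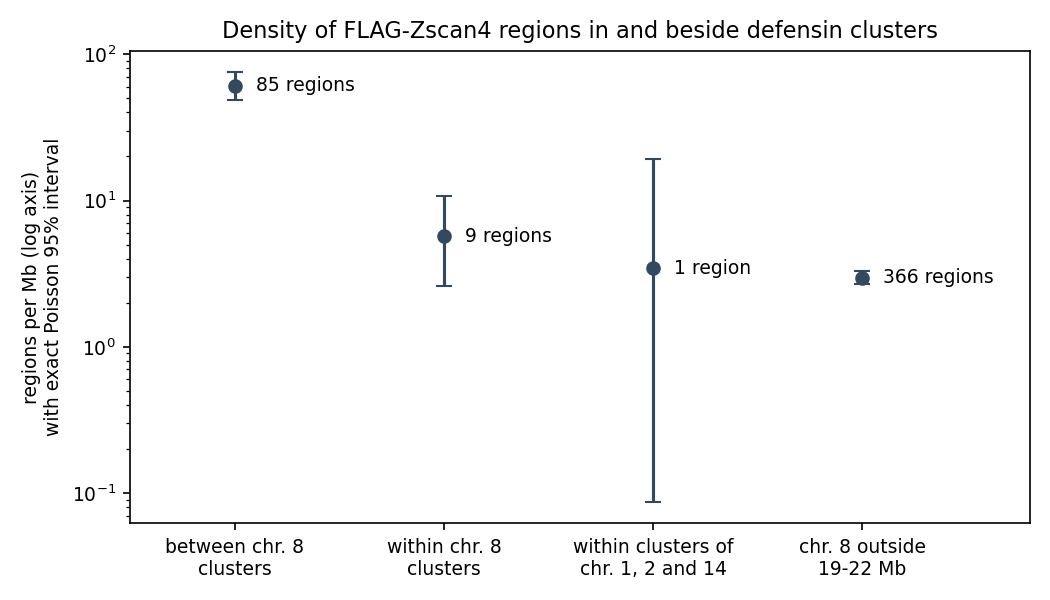
Regions per Mb (log axis) between the 2 chromosome 8 defensin clusters, within them, within the defensin clusters of chromosomes 1, 2 and 14, and on the rest of chromosome 8, with exact Poisson 95% intervals. The interval between the clusters stands at 60.9 per Mb, while the defensin clusters stand at 5.70 and 3.45 per Mb with intervals that include the 2.97 per Mb of the rest of chromosome 8.

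Defensin genes themselves had a region about as often as genes in general. A gene was counted when a region midpoint lay in its body or within 10 kb of it, which held for 6 of the 83 members (7.23%, 95% Wilson interval 3.36 to 14.9%), against 8.89% of all 49640 genes and 6.3% of the 41313 genes no longer than the longest defensin gene. Among coding genes alone it held for 5 of 71 members, against 11.8% of 21792 coding genes, a set not matched for length. On chromosome 8 it held for 5 of 64 members (7.81%, 3.38 to 17.0%), against 13.1% of all genes of that chromosome. On the other chromosomes it held for 1 of 19 (5.26%, 0.935 to 24.6%). A region in the gene body was listed for 1 member, against 4.46% of all genes and 718 of the 41313 genes no longer than the longest defensin gene. Within 50 kb, 26 of 83 members (31.3%) had a region, against 23.2% of all genes. On chromosome 8 that window held a region for 21 of 64 members (32.8%), against 33.4% of all genes of the chromosome. Defensin genes were short, with a median span of 1.62 kb against 5.98 kb over all genes.

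The 6 members with a region were met by 6 distinct regions of modest score, between 29 and 79 with a median of 38, against a median of 33 over the list. Scores are the authors' own, their scale is unknown, and they are used here only to rank regions within the list. Defa-ps13, a transcribed pseudogene for which RefSeq lists the synonym Defb54-ps, contained a region of score 79 and 869 bp (chr8:19302188-19303056). The same region lay 7.28 kb from Defb3, an inducible beta-defensin of airway epithelium. A region of score 29 (chr8:19033030-19033314) lay 6.60 kb from Defb38, a beta-defensin of the epididymis. These 3 genes belong to the proximal cluster, and Defb14, Defb4, Defb6 and Defb5 of the same cluster had their nearest region between 51.8 and 107 kb away. Defb39 and Defb37, also of that cluster, lay closer to one, at 19.7 and 42.1 kb.

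Defb11, a beta-defensin gene of the distal cluster, was the member with 2 regions and the member with a region at its annotated start. The first (chr8:21906333-21906568, 236 bp, score 35) had its midpoint 18.5 bp upstream of the start, on the minus strand, and covered 186 of the 300 promoter bases printed above. It was the only one of 46 defensin promoters in the table (45 genes) that a region overlapped, where 43 of all 32851 promoters (0.131%) were overlapped. The second (chr8:21913102-21913425, score 29) lay 6.83 kb away. Both scores were close to or below the list median of 33, and the member was picked out after its values were seen. Its neighbours Defb9, Defb15, Defb35 and Defb13 had their nearest region at 16.6 to 33.5 kb.

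The longest gap between regions of the stretch fell among the alpha-defensin genes. From chr8:20998369 to chr8:21711248, over 713 kb, no region was listed, and this gap held 51 genes, 33 of them with Defa symbols and none with Defb symbols. Such a gap was not rare on the chromosome, where 44 of 460 gaps between neighbouring regions (9.57%) were at least as long. Of the 36 distal genes with Defa symbols, 1 had a region within 10 kb, against 13.1% of chromosome 8 genes and 8.89% of all genes. That gene was Defa39, 7.92 kb from a region of score 42 (chr8:21711249-21711876). None of the 36 had a region in the body, against 4.46% of all genes. Genes with Defa symbols are short, with a median span of 0.97 kb against 5.98 kb over all genes. Of the 41313 genes no longer than the longest defensin gene, 718 had a region in the body. Defa21, the first of them, lay 28.6 kb from a region of score 250 (chr8:20996849-20997107), the highest-scoring one inside either cluster, and 27.4 kb from its nearest region, of score 51. Defa-ps16 lay farthest, at 344 kb, and Defa2 and Defa5, genes of cryptdin peptides, lay at 332 and 299 kb. Over all 40 genes with Defa symbols the median distance to the nearest region was 155 kb (interquartile range 64.4 to 258 kb), against 57.0 kb (20.3 to 101 kb) over the 43 with Defb symbols. It was 99 kb over all genes of chromosome 8, where all 40 lie, and 165 kb over all genes.

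At the limit of 10 kb, Defa39 at 7.92 kb and Defb3 at 7.28 kb were the last inside, and Defa-ps10 at 10.5 kb, Defb50 at 11.4 kb, Defb19 at 11.5 kb and Defb36 at 12.5 kb were the first outside. At the borders of the stretch, the region at chr8:18910567-18910945 (score 34) lay just before 19 Mb and the one at chr8:22176933-22177156 (score 38), in Ckap2, just after 22 Mb. The first and last inside had scores of 29 and 39.

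The clusters on other chromosomes showed few regions. On chromosome 2, where 11 Defb genes span 164 kb (chr2:152459055-152623053), a single region of score 41 (chr2:152591618-152591998, 381 bp) lay 1.38 kb from Defb45 and was the nearest region of all 11 genes. Defb19 and Defb36 beside it lay at 11.5 and 12.5 kb, and Defb23 at the far end at 127 kb. On chromosome 14, 5 Defb genes over 71.1 kb (chr14:62977524-63048606) contained no region, and the nearest, of score 23 (chr14:63105418-63105874), lay 57.0 kb from Defb42 and 121 kb from Defb48. On chromosome 1, Defb44-ps, Defb18 and Defb41 (chr1:18210053-18265138) contained none either, and the nearest, of score 130 (chr1:18078207-18079027), lay at 131 to 172 kb. The median distance was 90.2 kb over the 64 members on chromosome 8, against 99 kb over all genes of that chromosome, and 80.1 kb over the 19 on other chromosomes.

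**Figure D3:**
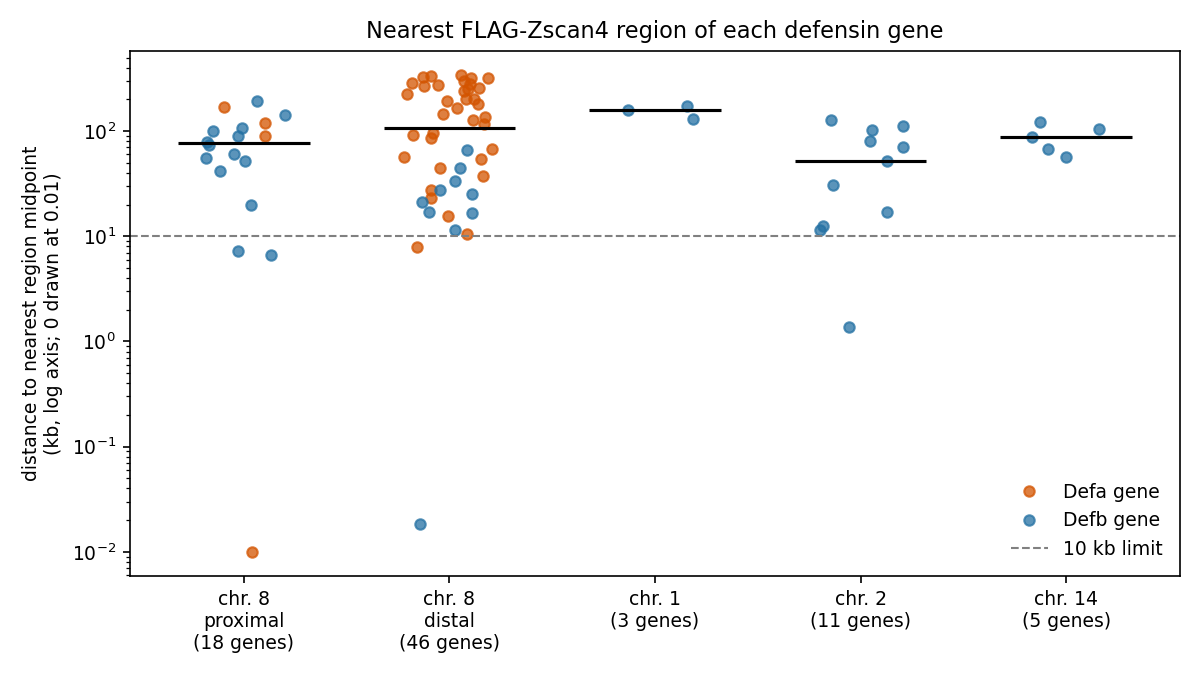
Distance from each of the 83 defensin genes to the nearest region midpoint (kb, log axis, with a distance of 0 drawn at 0.01), by cluster, with the cluster median as a black bar and the limit of 10 kb dashed. The 6 genes below the limit are 3 of the proximal chromosome 8 cluster, Defa39 and Defb11 of the distal one and Defb45 on chromosome 2, and the ranges of the chromosome 8 clusters cover those of the others.

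The interval between the chromosome 8 clusters was made up mainly of pseudogenes and predicted genes. It held 32 genes, of which 22 were pseudogenes, 5 long non-coding RNA genes and 5 protein-coding genes. A region in the body or within 10 kb was listed for 22 of the 32 (68.8%), against 8.89% of all genes, a difference that the choice of the stretch fixed. By the number in the body, the transcribed pseudogene 2610005L07Rik came first with 7 regions over 39.0 kb (scores 18 to 397). The coding genes 4930467E23Rik and Gm21119 had 5 each (scores 29 to 176 and 42 to 96), and the coding gene 9530057J20Rik had 3 (77 to 146). The coding gene Gm15319, the long non-coding RNA gene Gm40468 and the pseudogenes Gm20778, Gm21811, Gm21092 and Gm21112 had 2 each. Across the whole stretch 34 of 95 regions (35.8%) lay inside a gene, 15 of them in coding genes, 17 in pseudogenes and 2 in long non-coding RNA genes.

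Regions of the stretch ranked high in the list. Their median score was 93 (interquartile range 49.5 to 166.5), against 32 (22 to 53) over the 4878 other regions. Scores reached 100 in 45 of 95 (47.4%), against 10.3% of the others, and 83 (87.4%) reached the list median of 33. The highest, 707, ranked 38th in the list (chr8:20330792-20331402) and lay 6.57 kb from Gm15319. Next came 694 at Gm46074 (chr8:20647185-20649869), 652 at 1.08 kb from Gm40467 (chr8:20512116-20514133), 484 at 4.42 kb from the pseudogene Gm20778 (chr8:20069267-20071699) and 455 at 52.4 kb from Gm46074 (chr8:20702647-20706890). The other 10 of the 15 highest, from 438 down to 250, were nearest to Gm46074 (3 regions), Gm40469 (2 regions), Gm21811, 2610005L07Rik, Gm15319, Gm21112 and Defa21. The last of these was the sole one of the 15 whose nearest gene was a defensin gene.

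Neighbours were close. A neighbour within 10 kb was found for 79 of 95 regions (83.2%, 95% Wilson interval 74.4 to 89.4%), against 13.8% of all other regions, and the median gap to the next region was 6.86 kb inside the stretch against 88.6 kb along the whole chromosome. When regions with gaps of at most 50 kb were joined, 3 blocks held 70 regions in all. They ran from chr8:20000884 to chr8:20155114 (16 regions), from chr8:20259189 to chr8:20429135 (23) and from chr8:20512116 to chr8:20706890 (31). Empty gaps of 104 and 83.0 kb separated them, and a further gap of 106 kb followed. Whether unsequenced parts of the assembly lie in these or other gaps of the stretch was not checked.

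Width set part of the interval apart. The median width in the stretch was 308 bp, against 310 bp over all other regions, but 11 regions (11.6%) were wider than 1000 bp, against 3.71%. These 11 all lay between the clusters, with scores of 77 to 694 and a median of 265, against a median of 87 for the 84 narrower ones. The widest region of the whole list, 4244 bp, was among them. Of the 11, 8 fell in 59.7 kb (chr8:20647185-20706890) together with 4 narrower regions, and these 12 covered 34.9% of that sequence. They came in 4 groups of 1, 3, 3 and 5 regions with empty gaps of 10.6, 11.1 and 11.6 kb between them.

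Repeated sequence was seen in some promoters of this interval, those of Gm46074, Gm15319, Gm21119 and 4930467E23Rik. By the measure of shared words given below, the promoters of Gm35998, 9530057J20Rik, Gm40467 and Gm40469 shared 0% with the promoter of another gene. That of Gm40468 shared 2.96%. This measure does not see repeats inside a promoter or shared with other DNA, and it was also 0% for Gm46074. It therefore cannot show that a promoter lacks repeated sequence. The promoter of Gm46074, a long non-coding RNA gene, lay wholly inside the region of 2685 bp and score 694. Compared with itself at lags of 20 to 200 bases, it was most alike at a lag of 156 bases, where 98.6% of bases were identical, against a median of 35.8% for the best lag over all promoters. No other promoter in the table reached that value. The search had first ended at 150 bases, where the best lag was 105 bases with 65.1% identity, and it was widened after the repeat was seen in the printed sequence. The promoters of Gm15319 and Gm21119, which lie on opposite strands, were identical over all 300 bases, and so was that of 4930467E23Rik on the plus strand. Regions overlapped the first pair, with scores of 49 and 47 and 268 and 219 bases inside the promoter. None overlapped the copy at 4930467E23Rik (chr8:19729326-19729625), but a region of score 64 (chr8:19728831-19729060) ended a short way upstream of that copy. Upstream of the Gm15319 promoter there was likewise a further region, of score 90 (chr8:20363697-20363919). Reads that lie wholly within identical sequence cannot be told apart, and it is not stated how the authors placed them.

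Promoters of alpha-defensin genes also shared sequence with one another. Promoters of 16 Defa genes were in the table, and a median of 100% of their 31-base words also occurred in the promoter of another gene on either strand. More than 50% of the words were shared for 13 of the 16, against 11.2% of all promoters. Promoters of neighbouring genes that overlap in position also count as shared, as with Gm29821 and Ccdc70 (87.0% each). The 11.2% therefore includes such promoters beside duplicated sequence. Of 14 Defb promoters on chromosome 8 none had more than 50% shared (median 6.67%), and of 16 on other chromosomes (15 genes) none had (median 0%). Among the 120 pairs of Defa promoters, identity had a median of 72.5% and ranged from 55.8 to 100%, and 17 pairs reached 95%. Defa21 and Defa2 are printed as an example, with the 7 bases of 300 that differ in capitals.

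Defa21, chr8:21025295-21025594, plus strand: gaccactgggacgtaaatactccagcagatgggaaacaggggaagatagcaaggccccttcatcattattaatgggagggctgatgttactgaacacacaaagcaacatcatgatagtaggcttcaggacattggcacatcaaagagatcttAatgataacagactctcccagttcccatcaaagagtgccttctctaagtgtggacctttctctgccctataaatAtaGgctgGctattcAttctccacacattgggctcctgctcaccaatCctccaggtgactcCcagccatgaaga
Defa2, chr8:21378267-21378566, plus strand: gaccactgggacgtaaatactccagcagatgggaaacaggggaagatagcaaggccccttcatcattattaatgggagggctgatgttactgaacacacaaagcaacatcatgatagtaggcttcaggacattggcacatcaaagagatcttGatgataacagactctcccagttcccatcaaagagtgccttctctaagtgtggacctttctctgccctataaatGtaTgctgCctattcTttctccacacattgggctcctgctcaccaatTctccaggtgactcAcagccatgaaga

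Regions were thus listed over identical promoters of Gm15319 and Gm21119, which lie in a stretch chosen for its dense regions. None was listed at the 16 Defa promoters, where 43 of all 32851 promoters (0.131%) were overlapped. At that share, finding none among 16 promoters says little, and no conclusion is drawn from the contrast. Weaker binding, under the threshold of the authors, would not appear in the list. The part that mapping of repeated sequence plays in the region counts of the stretch was not tested.

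**Figure D4:**
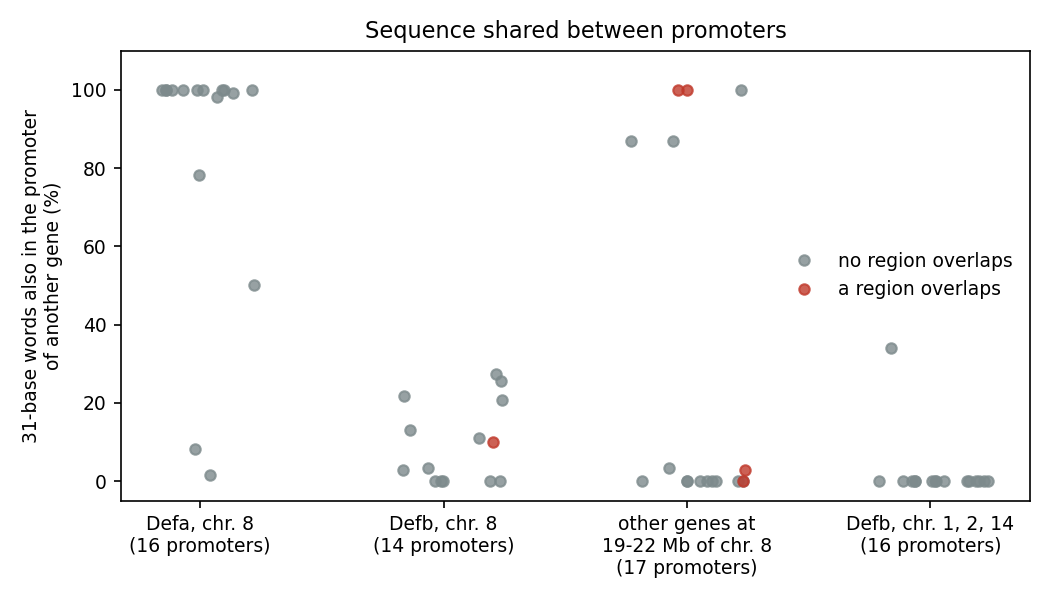
Share of the 31-base words of each promoter (%) that also occur in the promoter of another gene, for Defa genes, chromosome 8 Defb genes, other genes at 19 to 22 Mb of chromosome 8 and Defb genes elsewhere, with promoters overlapped by a region in red. Of the 16 Defa promoters 13 lie above 50% and none is red, where 0.131% of all promoters are overlapped by a region. The red promoters lie at 10% (Defb11), 0% (Gm46074), 2.96% (Gm40468) and, for the identical pair, 100%. Gm29821 and Ccdc70 stand at 87.0% because their promoters overlap in position.

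Motif searches in the same promoters gave few matches. TGCACAC, a motif of the CA/TG type, was searched on both strands and was found in 1 of 46 defensin promoters (2.17%), that of Defb38, and in 1 of 17 other promoters of the stretch (5.88%), that of Gm40467, against 4.4% of all 32851 promoters. CACACACA, which can overlap the first motif, was found in none of these 63 promoters on either strand, against 4.09% of all. Neither motif was found in the 5 promoters that a region overlapped. A lack of matches says only that these letters are not in the windows read.

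Genes that act beside the defensins were taken from a list of 40 antimicrobial and Paneth cell genes, all of which were in the gene table. A region in the body or within 10 kb was listed for 4 of the 40 (10%, 95% Wilson interval 3.96 to 23.1%), against 8.89% of all genes. Itln1, the gut lectin intelectin, had 3 regions with scores of 86, 18 and 10, the first 2 in the body. Atoh1, the transcription factor that commits crypt cells to the secretory lineage, had a region of score 90 at 3.63 kb. Tcf7l2, a transcription factor of the Wnt pathway, had a region of score 18 in its body, which is 192 kb long. Mmp7, which activates alpha-defensins in the mouse, had a region of score 13 at 9.96 kb, close to the limit. The other 36 had none within 10 kb, among them the lysozyme genes Lyz1 and Lyz2, the cathelicidin gene Camp, at 10.9 kb, and the beta-defensin-like genes Spag11a and Spag11b, which lie in the proximal cluster of chromosome 8.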

How the data were processed

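The file analysed was 1 list of FLAG-Zscan4 regions on mm10. Tools named in the submitters' processing notes are MACS2, Bowtie2, deepTools and cutadapt, with no versions or thresholds, and the handling of reads with several matches is not stated. The score was deposited by the authors as 1 whole number per region, with no scale stated. Positions deposited by the authors count starts from 0, and they are printed counted from 1. No read counts were in the file, so depth is unknown. As far as the labels say, the list comes from 1 immunoprecipitation and no replicates were pooled.

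Genes came from the RefSeq table of GRCm38.p6 (49997 genes, of which 49640 were used, since 17 lay on no chromosome used and 340 began below 3 Mb). Regions were assigned to genes by midpoint with Python 3.11.15, and the assignment was tested on simulated placements. Shares have 95% Wilson intervals and rates have 95% exact Poisson intervals. The members, the stretch and the gene list were chosen with earlier results of these data known, and no chance test was made. Genes were named by rule: defensin genes with a region, the genes nearest to the 15 highest-scoring regions of the stretch, other genes there with 2 or more regions in the body, the member nearest to a region in each other cluster, and list members with a region. Further members, and the promoters printed, were named after their values were seen. Promoter sequences are from RefSeq, and 45 of the 83 members had one.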

Additional observations from a re-analysis of the deposited data

How the results depend on the processing

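Of 53 alternative values over 9 results, 36 kept and 17 moved. A count kept when it was within 1.5 times the reported count, whatever its interval. A share or median kept when it was inside the interval of the reported value, which for a median was not the interquartile range. The number of members with a region depended on the window and on the score. In the gene body alone it was 1 of 83, on chromosome 8 it was 1, on other chromosomes 0, and in the antimicrobial list 2. The share over all genes was 4.46%. Within 50 kb the same counts were 26, 21, 5 and 12 of 40, against 23.2% of all genes (33.4% on chromosome 8). With the 1252 regions of highest score they were 2, 2, 0 and 2 (2.21% of all genes), and the clusters of other chromosomes contained 0 regions. With the 2510 highest the list had 2 of 40 genes, against 4.64% of all genes. The median score of the stretch was 128 among the 1252 highest, a rise whose direction the filter on score fixed. The share with a neighbour was 90.8% at 20 to 21 Mb and 96.8% when neighbours within 100 kb counted. The share of the stretch's regions that lay between the clusters was 90.4% among the 2510 highest and 95.7% among the 1252 highest. Counting any overlap of 1 bp and merging regions within 1 kb moved none of the results they were applied to. Coding genes alone moved no gene count, but the share over all coding genes was higher, at 11.8%. No paired analysis was possible because each group had 1 sample and the list comes from 1 library. Without read counts or input values, a limit of detection could not be given.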
